A study of Mus musculus with 6 samples.

Results

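The genes described here are 34 genes of cholesterol synthesis and its control, chosen by name as the enzymes of the mevalonate, sterol and isoprenoid pathways, the SREBP regulators and the genes that take up, move or store cholesterol. They were found by symbol among 34718 genes in the count table, and all 34 had enough counts to be tested beside 11975 genes in all. Messenger RNA was sequenced in Hepa1-6, a mouse hepatoma cell line grown in culture, in 3 libraries titled shNC and labelled control and in 3 libraries titled shZfp207 and labelled Zfp207 knockdown. Both groups thus carried a short hairpin vector by their titles, and neither the number of hairpins, nor the vector, nor whether the cells were cloned is stated in the labels. Zfp207, a zinc finger protein that binds microtubules and the checkpoint protein BUB3, was at 140, 199 and 216 CPM (counts scaled to library size, with TMM factors) in control replicates 1 to 3 and at 48, 48.5 and 47.3 CPM in knockdown replicates 1 to 3. It fell by 1.95 on the log2 scale (SE 0.17, edgeR adjusted p = 0.00236).

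Cells build cholesterol from acetyl-CoA. The mevalonate enzymes make isoprene units, which are joined to farnesyl diphosphate, paired to squalene, closed to lanosterol and trimmed to cholesterol, while side branches lead to dolichol, ubiquinone and the prenyl groups of proteins. The transcription factor SREBP2, encoded by Srebf2, drives most of these genes. When membranes hold enough sterol, SREBP2 is kept in the endoplasmic reticulum by its escort SCAP and the INSIG proteins, and when sterol is scarce it is carried to the Golgi, cut and released to the nucleus. Hepatocytes are among the most active cholesterol-making cells, and SREBP1, from Srebf1, drives fatty acid synthesis in them in a related way.

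The libraries held 11933736 to 16248346 counts. A floor of 3 counts was set for an observed 0, for counting error only, and corresponded to 0.185 to 0.251 CPM. Control replicate 1 stood apart: its share of mitochondrially encoded reads was 10.5%, while the other controls had 2.89% and 2.67% and the knockdown libraries 5.6% to 6%. The nuclear RNA Malat1 followed the same order, with 327 CPM there, 104 to 131 CPM after knockdown and 30.9 and 30 CPM in control replicates 2 and 3. For this reason the members were compared with all 6 libraries and again against control replicates 2 and 3 alone. Hepatocyte lineage markers (8 genes, Alb and Afp among them) summed to 2570 to 3580 CPM in control and 5420 to 5790 CPM in knockdown libraries. This sum is mostly Alb and Afp except in control replicate 1, where Trf, the transferrin gene, was the largest at 853 CPM. The list did not move as 1, and of its 7 tested genes 4 rose with 6 libraries. Trf fell by 0.55 (edgeR adjusted p = 0.0155) and the hepatocyte transcription factor Hnf4a was at 0.02 (edgeR adjusted p = 0.927). The part of these marker differences in the results was not tested. Markers of leukocytes (5 genes, Cd3e at 0 in all libraries), endothelium (3 genes) and fibroblasts (4 genes, Lrat at 0 in all) summed to at most 0.787, 2.07 and 0.828 CPM. In bulk RNA such as this, fewer cells of a kind and less RNA per cell cannot be told apart.

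Most enzymes that carry acetyl-CoA to cholesterol were lower after knockdown. With all 6 libraries, 10 of the 19 enzymes from Acat2 to Dhcr7 fell, with a median log2 fold change of -0.86 beside -0.03 over all genes tested. Of all genes tested, 10.7% were called lower and 9.92% higher. No enzyme was called higher by edgeR at the adjusted threshold of 0.05, whereas at an unadjusted p below 0.05 there were 2, and DESeq2 called 1 and voom with sample quality weights 2. Against control replicates 2 and 3 alone, 17 of the 19 fell and 2 rose, where 26.1% of all 12108 genes tested were lower and 26.1% higher. Of the other 15 members, 4 fell and 1 rose with 6 libraries, and 7 fell and 2 rose without control replicate 1.

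**Figure D1:**
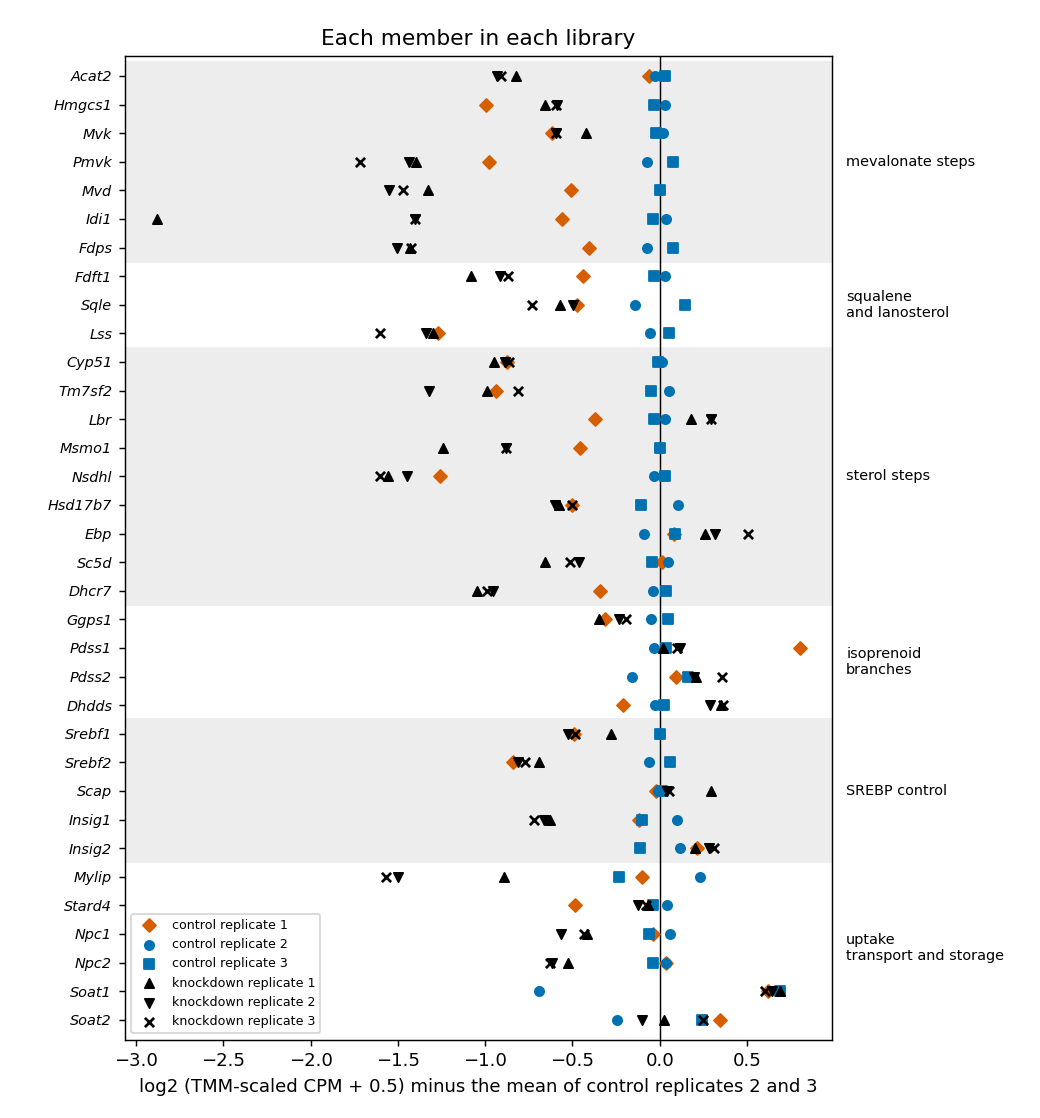
Each row is a member and each point a library; the x axis is the log2 of TMM-scaled CPM plus 0.5, minus the mean of control replicates 2 and 3. The knockdown libraries (black) lie left of control replicates 2 and 3 (blue) at most enzymes of the upper 3 blocks, and control replicate 1 (orange diamonds) lies between them or beside the knockdown libraries at many.

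Promoters of 4 enzymes whose libraries are described in detail further on, and of the regulators Insig1 and Srebf2, are shown because SREBP acts there together with the general factors NF-Y and Sp1. The windows come from RefSeq on GRCm38.p6, run from 250 bases before to 50 bases after the transcription start, and are written as the gene reads. They are chr13:119690101-119690400 (plus strand) for Hmgcs1, chr8:122443373-122443672 (minus) for Mvd, chr13:8885356-8885655 (plus) for Idi1, chrX:72918271-72918570 (plus) for Nsdhl, chr5:28071162-28071461 (plus) for Insig1 and chr15:82147019-82147318 (plus) for Srebf2. Capitals mark matches on either strand to the NF-Y box CCAAT and to the sterol regulatory element TCACNCCAC.
Hmgcs1: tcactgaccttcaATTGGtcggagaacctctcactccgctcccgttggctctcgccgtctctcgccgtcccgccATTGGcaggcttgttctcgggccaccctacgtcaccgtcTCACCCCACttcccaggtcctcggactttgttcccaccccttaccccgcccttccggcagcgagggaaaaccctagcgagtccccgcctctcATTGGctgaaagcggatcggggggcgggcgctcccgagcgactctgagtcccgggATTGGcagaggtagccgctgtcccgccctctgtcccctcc
Mvd: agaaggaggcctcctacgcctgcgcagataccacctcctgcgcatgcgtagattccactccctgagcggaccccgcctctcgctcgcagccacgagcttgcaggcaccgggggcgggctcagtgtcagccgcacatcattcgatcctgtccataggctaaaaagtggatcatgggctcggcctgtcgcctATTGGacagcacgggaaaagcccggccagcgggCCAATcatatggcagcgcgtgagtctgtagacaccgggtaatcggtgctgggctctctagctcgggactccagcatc
Idi1: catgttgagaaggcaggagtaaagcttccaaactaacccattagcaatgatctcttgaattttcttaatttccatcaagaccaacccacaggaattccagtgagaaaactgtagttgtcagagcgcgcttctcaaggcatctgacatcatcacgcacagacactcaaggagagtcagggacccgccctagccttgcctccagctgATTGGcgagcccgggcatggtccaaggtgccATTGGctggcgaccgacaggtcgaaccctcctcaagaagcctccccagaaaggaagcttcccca
Nsdhl: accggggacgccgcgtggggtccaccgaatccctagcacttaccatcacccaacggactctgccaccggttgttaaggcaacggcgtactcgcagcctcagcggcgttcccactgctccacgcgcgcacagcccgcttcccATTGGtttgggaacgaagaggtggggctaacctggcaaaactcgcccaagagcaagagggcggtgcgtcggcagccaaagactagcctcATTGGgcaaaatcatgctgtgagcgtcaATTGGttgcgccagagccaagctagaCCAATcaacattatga
Insig1: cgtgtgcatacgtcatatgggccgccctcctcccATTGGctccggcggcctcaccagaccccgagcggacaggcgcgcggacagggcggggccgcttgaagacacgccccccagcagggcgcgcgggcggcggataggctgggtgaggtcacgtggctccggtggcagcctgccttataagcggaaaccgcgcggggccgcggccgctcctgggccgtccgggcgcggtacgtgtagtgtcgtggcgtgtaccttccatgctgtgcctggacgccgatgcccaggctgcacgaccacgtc
Srebf2: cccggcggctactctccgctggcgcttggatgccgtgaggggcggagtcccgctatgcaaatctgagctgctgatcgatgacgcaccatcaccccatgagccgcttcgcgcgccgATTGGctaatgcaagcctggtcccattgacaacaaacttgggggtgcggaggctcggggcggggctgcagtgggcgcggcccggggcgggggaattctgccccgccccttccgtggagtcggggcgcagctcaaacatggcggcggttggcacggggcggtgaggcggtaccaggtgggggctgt

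A promoter window was found for 28 of the 34 members, 16 of the 19 enzymes among them. The sterol element spelled above was matched in 1 of the 28, Hmgcs1, with its first base 137 bases before the start. That RefSeq start, base 119690351, lies before the gene start given with the deposited counts, base 119690462, and the whole window ends before the latter. RefSeq starts also differed from the gene starts given with the counts for Idi1, Nsdhl, Insig1 and, slightly, Srebf2 (base 82147269 against 82147266). The sterol element was also rare elsewhere, in 1.48% of the 8929 tested genes with a window and in 1.24% of all 32851 windows. With 1 mismatch allowed, 11 of the 28 members (39.3%) and 29% of the tested genes held it. The NF-Y box was in 24 of the 28 members (85.7%) and in 15 of the 16 enzymes (93.8%), beside 43.7% of the tested genes and 37.4% of all windows. Hmgcs1 and Nsdhl each had 4 NF-Y boxes in the windows printed above, Mvd and Idi1 2 each, and Insig1 and Srebf2 1 each. Of the 52 NF-Y matches in members' windows, 31 began within the 100 bases before the start. Positions were not counted in the windows of other genes, so this cannot be called a trait of the members. The Sp1 box GGGCGG was in 25 of the 28 members (89.3%) beside 69.5% of the tested genes, and the E-box CACGTG in 6 (21.4%) beside 12%. No matches to different motifs shared a base in these windows. Some members have several windows, and a match in these letters is not a measured binding site.

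**Figure D2:**
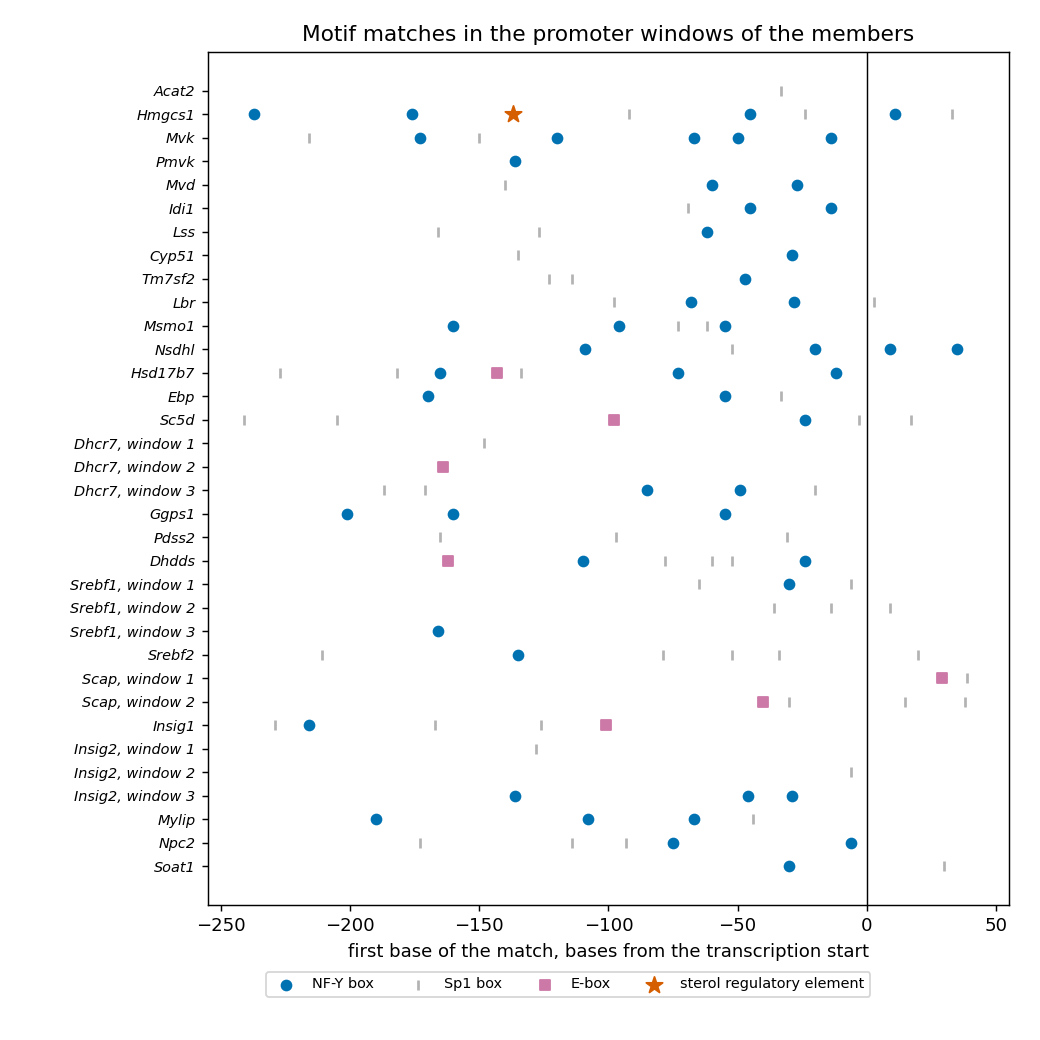
Each row is a promoter window of a member with at least 1 match (34 windows); the x axis is the first base of the match in bases from the transcription start, with both strands drawn alike. Most NF-Y boxes (blue) begin within 100 bases before the start, a position not compared with other genes. The single sterol regulatory element (star) is in Hmgcs1.

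Most of the mevalonate steps were lower after knockdown. With 6 libraries 5 of the 7 genes fell (median log2 fold change -1.28), beside 10.7% of all genes tested. Without control replicate 1 all 7 fell (median -1.46), beside 26.1% of all genes. With 6 libraries the values were -0.89 for Acat2, -0.35 for Hmgcs1 and -0.38 for Mvk, and between -1.60 and -1.28 for Pmvk, Mvd, Idi1 and Fdps. Hmgcs1 and Mvk were at -0.61 and -0.56 without control replicate 1. Differences between genes were not tested.

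Acat2 encodes the cytosolic thiolase that joins acetyl-CoA units in the first step (ENSMUSG00000023832, chromosome 17, 12942890 to 12960747 in mm10). It was at 20.5, 21 and 21.9 CPM in control replicates 1 to 3 and at 11.9, 11 and 11.2 CPM in knockdown replicates 1 to 3. Control replicate 1 thus matched the other controls here, and no knockdown library reached a control. The fall was 0.89 on the log2 scale (SE 0.108, edgeR adjusted p = 0.0046), and 0.91 without control replicate 1.

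Hmgcs1, the cytosolic HMG-CoA synthase (chromosome 13, 119690462 to 119708086), was at 155, 316 and 303 CPM in control and at 196, 206 and 205 CPM in knockdown libraries. Control replicate 1 was the lowest of all 6 libraries, so the groups overlapped. The log2 fold change of -0.35 (SE 0.257) did not pass with 6 libraries (edgeR adjusted p = 0.375). Against control replicates 2 and 3 the gene fell by 0.61 (SE 0.0415, edgeR adjusted p = 5.4e-05). The gene model Gm48342, on the other strand, covers 12.1% of its exonic bases, and whether reads were assigned by strand is not stated.

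Mvk, the mevalonate kinase, was also lowest in control replicate 1, though close to knockdown replicates 2 and 3. It was at 8.94, 14.2 and 13.8 CPM in control and 10.3, 9.09 and 9.11 CPM in knockdown libraries (log2 fold change -0.38, edgeR adjusted p = 0.228). It fell by 0.56 without control replicate 1. Pmvk, which adds the next phosphate (chromosome 3, 89454541 to 89469013), went from 24.2, 45.7 and 50.8 CPM to 18, 17.5 and 14.3 CPM. All knockdown libraries lay below control replicate 1 too, and Pmvk fell by 1.28 (SE 0.279, edgeR adjusted p = 0.0233), or by 1.54 without that library.

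Mvd, the mevalonate diphosphate decarboxylase (ENSMUSG00000006517, chromosome 8, 122433596 to 122443422), was at 15.7, 22.5 and 22.5 CPM in control and at 8.65, 7.35 and 7.8 CPM in knockdown libraries. The knockdown libraries were close together and below every control. The fall of 1.35 (SE 0.18, edgeR adjusted p = 0.00598) was a 2.55-fold decrease. Fdps, the farnesyl diphosphate synthase (ENSMUSG00000059743, chromosome 3, 89093588 to 89101959), fell by a similar ratio, from 175, 220 and 244 to 85.6, 81.3 and 86 CPM (log2 fold change -1.34, edgeR adjusted p = 0.00324). Against control replicates 2 and 3, the log2 fold changes were -1.50 for Mvd and -1.46 for Fdps. The gene model Gm43738 covers 26.7% of the exonic bases of Fdps on the same strand. This is a share of bases, and how many reads of Fdps it affects is not known.

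Idi1, the isomerase that turns isopentenyl into dimethylallyl diphosphate (ENSMUSG00000058258, chromosome 13, 8885501 to 8892451), had the most negative value among the enzymes. It was at 76.5, 116 and 110 CPM in control replicates 1 to 3 and at 14.9, 42.5 and 42.5 CPM in knockdown replicates 1 to 3. All knockdown libraries were below all controls, yet knockdown replicate 1 lay 1.48 below the mean of the other knockdown libraries on the log2 scale. No other member spread as widely after knockdown. The next was Mylip, with a range of 0.68 in log2 of CPM plus 0.5. That offset narrows the range of a gene as low as Mylip, which had 18, 9 and 8 counts. The other mevalonate genes had no such gap in knockdown replicate 1. The fall was 1.60 (SE 0.398, edgeR adjusted p = 0.0344), and without knockdown replicate 1 the log2 fold change was -1.24. It fell by 1.76 (SE 0.37) without control replicate 1. Gm48574 on the other strand covers 9.22% of the exonic bases of Idi1.

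The 3 enzymes that turn farnesyl diphosphate into lanosterol had all knockdown libraries below all controls, which held for 22.4% of all genes tested. Fdft1, the squalene synthase, went from 58.8, 81.5 and 78.1 CPM to 37.4, 42.1 and 43.4 CPM and fell by 0.83 (SE 0.147, edgeR adjusted p = 0.0124). Ctsb on the other strand covers 18.3% of its exonic bases. Sqle, the squalene epoxidase, was at 328, 413 and 504 CPM in control and 307, 323 and 274 CPM in knockdown libraries. Control replicate 1 lay just above knockdown replicate 2 there, and the log2 fold change of -0.46 did not pass (edgeR adjusted p = 0.0971). Lss, the lanosterol synthase, was at 44.1, 103 and 111 CPM in control and 43.1, 41.9 and 34.9 CPM in knockdown libraries, so that control replicate 1 lay with the knockdown libraries. It did not pass either, at -1.11 (SE 0.331, edgeR adjusted p = 0.0578). Without control replicate 1, Sqle fell by 0.61 and Lss by 1.42.

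**Figure D3:**
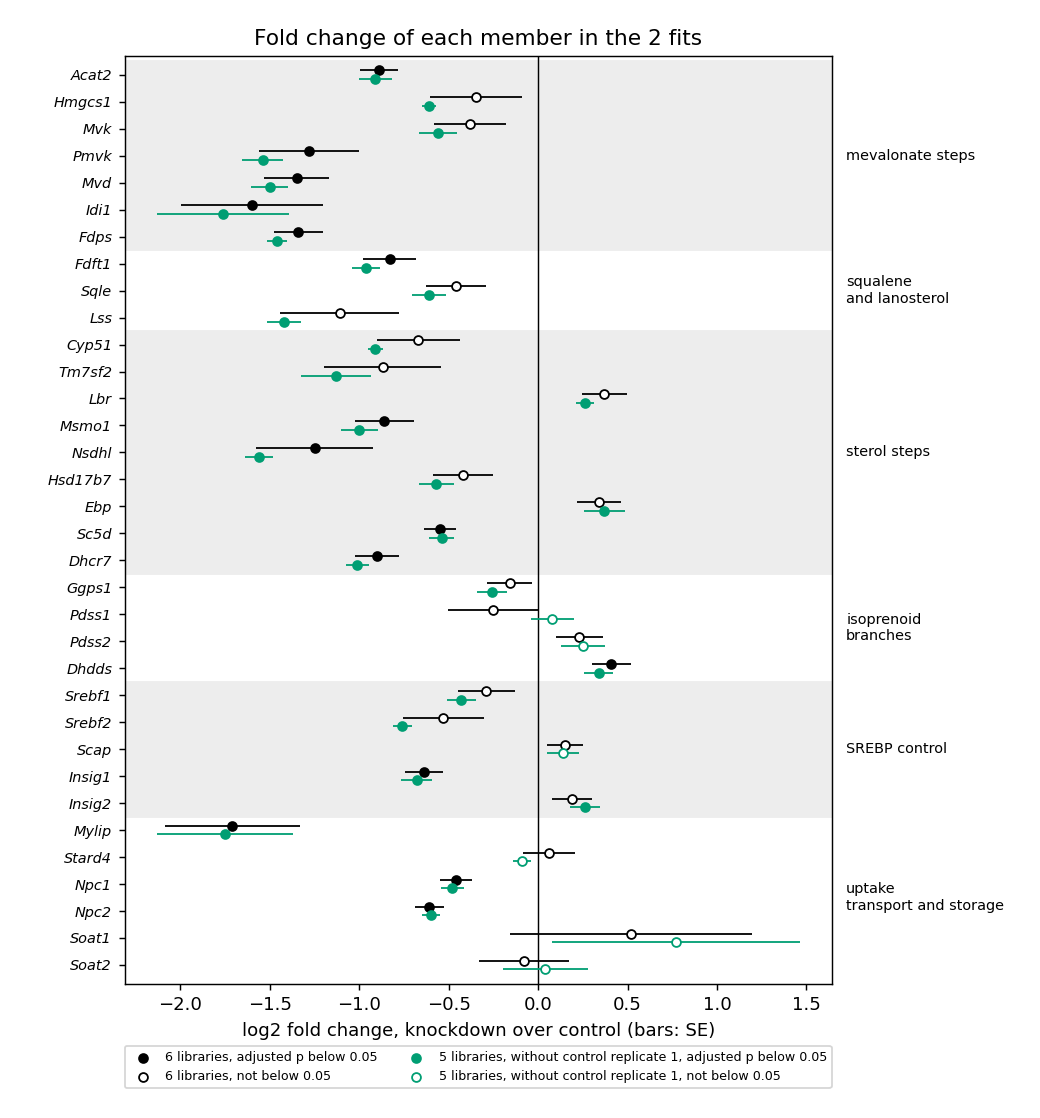
The x axis is the log2 fold change of knockdown over control for each member, with bars of 1 SE, from all 6 libraries (black) and without control replicate 1 (green); filled points passed an adjusted p of 0.05. The green bars are shorter at most genes, and Lbr, Ebp, Insig2 and Dhdds are the filled points right of 0.

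Among the 9 genes of the sterol steps after lanosterol, 4 fell with 6 libraries, namely Msmo1, Nsdhl, Sc5d and Dhcr7, beside 10.7% of all genes tested. Without control replicate 1, 7 of the 9 fell and 2 rose, beside 26.1% of all genes in each direction. Msmo1, the oxidase that removes methyl groups from the sterol ring, went from 137, 188 and 189 CPM to 79.5, 102 and 102 CPM (log2 fold change -0.86, edgeR adjusted p = 0.0155). Nsdhl, the dehydrogenase of the same demethylation complex (chromosome X, 72918557 to 72958514), went from 21.9, 51.9 and 54.2 CPM to 17.7, 19.1 and 17.1 CPM (-1.25, SE 0.329, edgeR adjusted p = 0.0403). Its control replicate 1 was far nearer to the knockdown libraries than to the other controls. Hsd17b7, the reductase of that complex, was at 20.4, 31.3 and 27 CPM in control and 19 to 20.4 CPM in knockdown libraries, and its -0.42 did not pass (edgeR adjusted p = 0.125). Against control replicates 2 and 3 alone, Msmo1 fell by 1.00, Nsdhl by 1.56 and Hsd17b7 by 0.57.

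Of the last steps, Dhcr7 and Sc5d fell. Dhcr7, the reductase that completes cholesterol (ENSMUSG00000058454, chromosome 7, 143823145 to 143848410), went from 54.6, 67.7 and 71.2 CPM to 33.3, 35.6 and 34.7 CPM and fell by 0.90 (SE 0.124, edgeR adjusted p = 0.00637), or by 1.01 without control replicate 1. Sc5d, the sterol desaturase before it, went from 126, 129 and 121 CPM to 78.9, 90.5 and 87.3 CPM. All 3 controls of Sc5d agreed, and it fell by 0.55 (SE 0.0906, edgeR adjusted p = 0.00999) and by 0.54 without control replicate 1. Ebp, the sterol isomerase that precedes Sc5d, lay the other way, at 18.1, 16 and 18.2 CPM in control and 20.5, 21.4 and 24.4 CPM in knockdown libraries. Its value of 0.34 did not pass with 6 libraries (edgeR adjusted p = 0.0942), and it rose by 0.37 without control replicate 1 (edgeR adjusted p = 0.03).

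The step after the demethylase Cyp51 can be done by either of the sterol reductases Tm7sf2 and Lbr, whose values had opposite signs. Tm7sf2, a protein of the endoplasmic reticulum, was at 3.56, 7.56 and 7 CPM in control and 3.41, 2.61 and 3.93 CPM in knockdown libraries (-0.87, SE 0.327, edgeR adjusted p = 0.106). Lbr, which also anchors chromatin at the inner nuclear membrane, was at 124, 164 and 157 CPM in control and 182, 197 and 197 CPM in knockdown libraries (0.37, SE 0.124, edgeR adjusted p = 0.0765). Every knockdown library was above every control for Lbr, as at 22.3% of all genes tested, while the groups of Tm7sf2 overlapped through control replicate 1. Without that library Tm7sf2 fell by 1.13 and Lbr rose by 0.26. Per transcript length Lbr was the far more abundant, at 19.1 ± 2.59 FPKM in control and 24.5 ± 0.931 FPKM in knockdown cells against 0.846 ± 0.299 and 0.461 ± 0.0925 FPKM for Tm7sf2 (SD, n = 3 each). Vps51 covers 12.1% of the exonic bases of Tm7sf2 on its strand, and Dnah14 covers 9.24% of those of Lbr on the other. Cyp51 itself was at 125, 232 and 228 CPM in control and 119 to 126 CPM in knockdown libraries (-0.67, edgeR adjusted p = 0.0872), and fell by 0.91 without control replicate 1.

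Of the 4 isoprenoid branch genes, 1 was called with 6 libraries, beside 20.6% of all genes tested, and it rose. Ggps1, which makes geranylgeranyl diphosphate for protein prenylation, was at 27.5 to 35.4 CPM in control and 26.8 to 29.9 CPM in knockdown libraries (log2 fold change -0.16, edgeR adjusted p = 0.399). Dhdds, which with Nus1 makes the dolichol chain, was at 18.8, 21.4 and 22.2 CPM in control and 27.9, 26.7 and 28.2 CPM in knockdown libraries, and was the member called higher with 6 libraries (0.41, SE 0.111, edgeR adjusted p = 0.044). Its groups did not overlap. Pdss1 and Pdss2, the subunits that make the ubiquinone side chain, had values of -0.25 and 0.23 (edgeR adjusted p = 0.533 and 0.265). Pdss1 changed sign to 0.08 without control replicate 1, where it was at 12.8 CPM against 6.94 to 7.76 CPM in the other 5 libraries. Without that library Ggps1 fell by 0.26 and Dhdds rose by 0.34. The difference between these branches and the sterol steps was not tested.

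Of the 5 SREBP regulators, Insig1 alone was called with 6 libraries, a share near the 20.6% of all genes tested. Insig1 is itself a target of SREBP and holds the SCAP complex in the endoplasmic reticulum. It was at 38.2, 44.5 and 38.6 CPM in control and 26.6, 26 and 25 CPM in knockdown libraries (ENSMUSG00000045294, chromosome 5, 28071363 to 28078662), and all controls lay well above all knockdown libraries. The fall was 0.64 (SE 0.106, edgeR adjusted p = 0.00999) and 0.68 without control replicate 1. Its paralog Insig2, which has a similar role, was at 62, 57.8 and 49.3 CPM in control and 61.4, 65 and 66.4 CPM in knockdown libraries. Those groups overlapped, with a value of 0.19 (edgeR adjusted p = 0.274), and Insig2 rose by 0.26 against control replicates 2 and 3 (edgeR adjusted p = 0.0346).

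Srebf2 (chromosome 15, 82147266 to 82205376) was at 205, 353 and 383 CPM in control and 227, 209 and 215 CPM in knockdown libraries. Control replicate 1 was the lowest of all 6, and with it the log2 fold change of -0.53 (SE 0.225) did not pass (edgeR adjusted p = 0.142). Without it Srebf2 fell by 0.76 (SE 0.0535, edgeR adjusted p = 6.1e-05), a 1.70-fold decrease. Srebf1 was at 72.5, 102 and 102 CPM in control and 84, 70.6 and 72.8 CPM in knockdown libraries (-0.29, edgeR adjusted p = 0.243), and fell by 0.43 without control replicate 1. Scap, the escort, was at 58.1 to 59.5 CPM in control and 60.9 to 72.6 CPM in knockdown libraries, and its 0.15 passed in neither comparison (edgeR adjusted p = 0.352 and 0.237).

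Genes of uptake, transport and storage were split. Npc1 and Npc2, which together move cholesterol out of the lysosome, both fell. Npc2 was at 172, 172 and 163 CPM in control and 116, 109 and 108 CPM in knockdown libraries (-0.61, SE 0.0812, edgeR adjusted p = 0.00598), and Npc1 at 142, 152 and 140 CPM against 109, 98.3 and 108 CPM (-0.46, SE 0.0877, edgeR adjusted p = 0.0149). For both genes control replicate 1 lay with the other controls. Mylip, a ubiquitin ligase that marks lipoprotein receptors for degradation and is a target of the sterol sensor LXR, fell by 1.71 (SE 0.377, edgeR adjusted p = 0.0239), from 29, 46 and 35 counts to 18, 9 and 8 counts. Every knockdown library had fewer counts than every control. Npc2 fell by 0.60, Npc1 fell by 0.48 and Mylip fell by 1.75 without control replicate 1. Stard4, a cytosolic sterol carrier and a known SREBP target, was at 74.7, 108 and 102 CPM in control and 96.3 to 100 CPM in knockdown libraries. It passed in neither comparison, with 0.06 and -0.09 (edgeR adjusted p = 0.811 and 0.198). The esterifying enzymes Soat1, with 1 to 16 counts in each library, and Soat2, with 40 to 66, did not pass either (edgeR adjusted p = 0.625 and 0.843).

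Compared per transcript length, Hmgcs1, Srebf2, Npc2 and Sqle were the most abundant members in control cells, with 79.8 ± 27.2, 62.9 ± 18.7, 51.9 ± 1.62 and 48.6 ± 10.1 FPKM (SD, n = 3 each). Neighbours in this order differed by less than the larger of their SDs. Next came Fdps at 37.4 ± 5.92, Sc5d at 36.9 ± 1.22 and Cyp51 at 36 ± 11 FPKM, which did not differ beyond their spread. After knockdown Hmgcs1 stayed at the top with 62.1 ± 1.29 FPKM, while Fdps was at 14.7 ± 0.485 and Idi1 at 6.87 ± 3.27 FPKM. The least abundant were Soat1, Mylip and Tm7sf2, each below 1 FPKM in both groups.

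**Figure D4:**
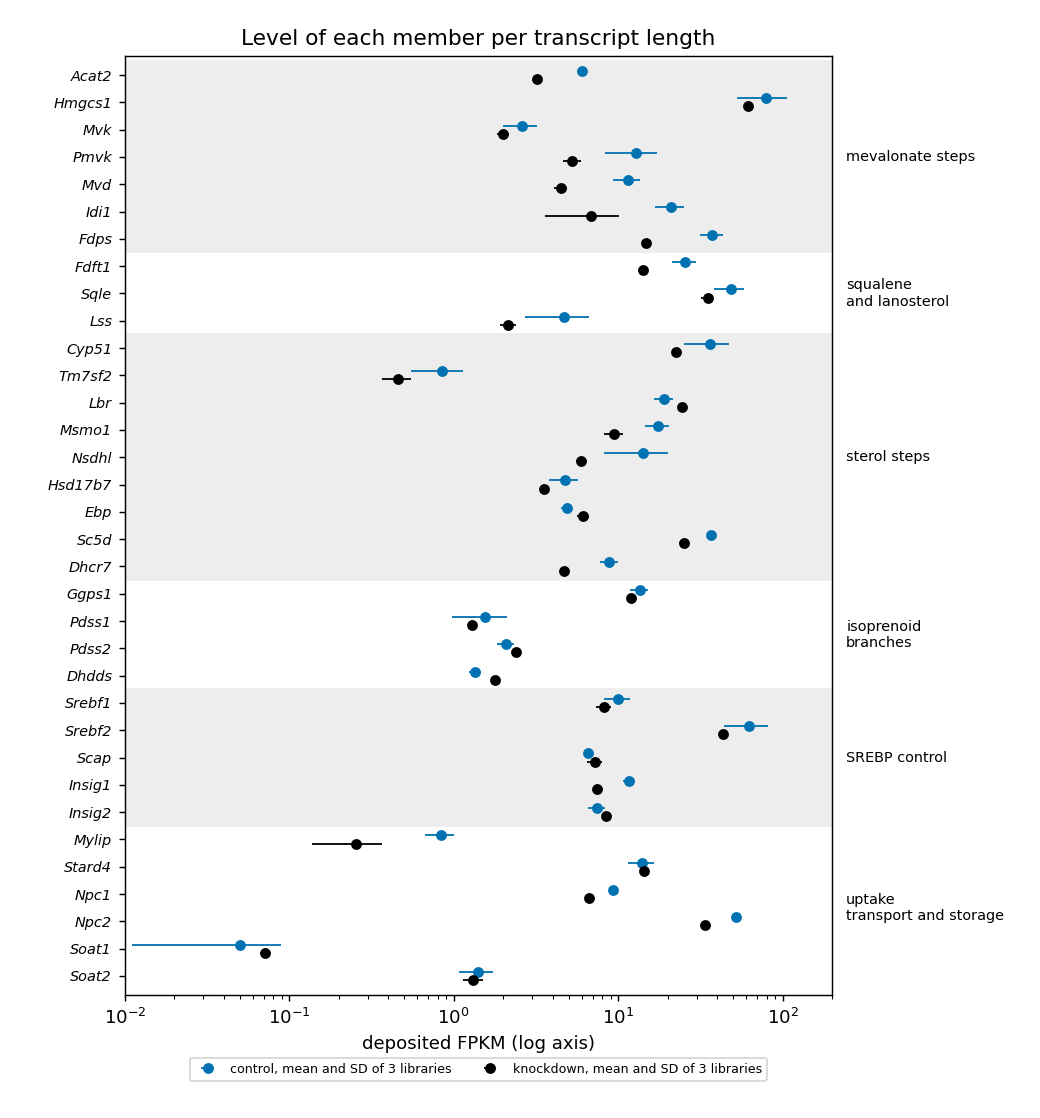
The x axis is the deposited FPKM on a log scale, with the mean and SD of 3 control (blue) and 3 knockdown libraries (black) for each member. Levels range from below 0.1 FPKM for Soat1 to 79.8 FPKM for Hmgcs1 in control cells.

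Many members were also low in control replicate 1. Of the 34, 24 were lower there than in both other controls, 17 of the 19 enzymes among them, beside 43.9% of all genes tested, and 3 were higher than in both, beside 45.2%. On the log2 scale the enzymes' median lay 0.50 below control replicates 2 and 3 in control replicate 1, while the medians of the knockdown libraries were -0.99, -0.92 and -0.87. Over all genes tested the median position was 0.01 in control replicate 1. Set against control replicate 1 alone, all 3 knockdown libraries were lower at 12 of the 19 enzymes, beside 44.8% of all genes tested. They were higher at 4, namely Hmgcs1, Mvk, Lbr and Ebp, beside 41.2% of all genes tested, and spanned it at Cyp51, Tm7sf2 and Hsd17b7. The mitochondrial share of the knockdown libraries, 5.6% to 6%, also lay between those of the controls. The part of these library differences in the falls was not tested.

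**Figure D5:**
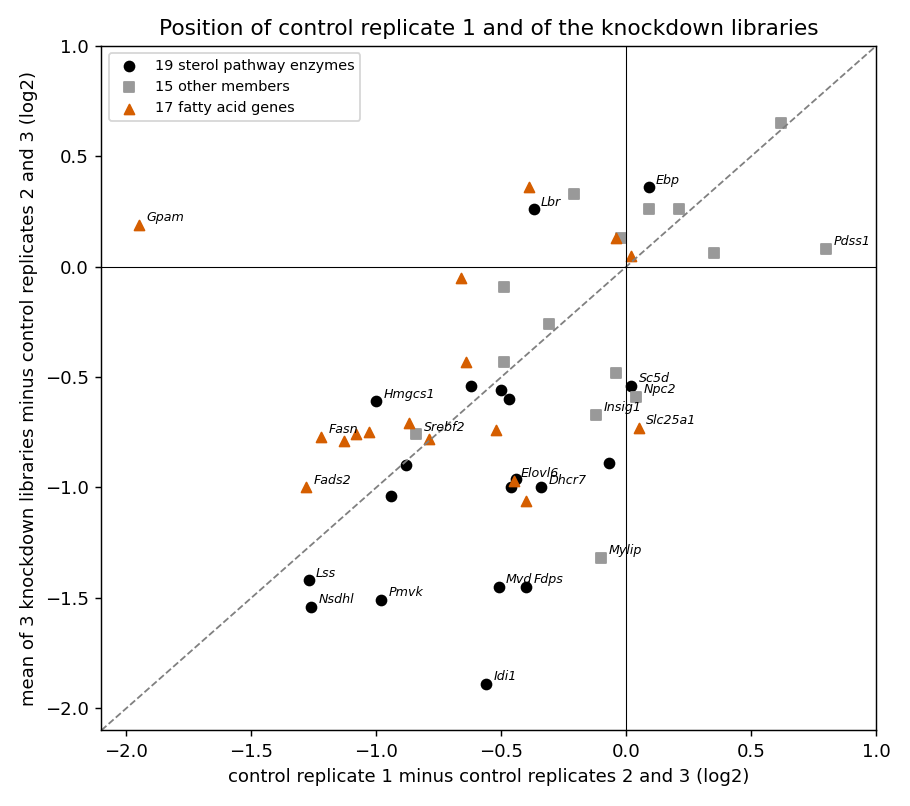
The x axis is the position of control replicate 1, and the y axis the mean position of the 3 knockdown libraries, each relative to control replicates 2 and 3 on the log2 scale; the dashed line marks equal positions. Mvd, Fdps, Idi1, Dhcr7 and Sc5d lie well below the line, whereas Hmgcs1, Fasn and Fads2 lie above it.

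The calls also depended on single libraries. Acat2, Mvd, Fdps and Dhcr7 kept their calls with each of the 6 libraries left out in turn, with edgeR adjusted p of at most 0.0418, 0.0444, 0.0342 and 0.0469. The other 11 called members kept their sign and lost the call at least once. Npc2 lost it without knockdown replicate 3 (edgeR adjusted p = 0.0504). Without knockdown replicate 1, 2 or 3 the adjusted p was 0.0645, 0.0635 and 0.0594 for Fdft1, 0.0563, 0.0509 and 0.0617 for Sc5d and 0.0512, 0.0602 and 0.0647 for Insig1. Msmo1 lost its call in those 3 fits (0.0677, 0.0643 and 0.0648) and without control replicate 3 (0.0538), and Npc1 in those 3 (0.0654, 0.0876 and 0.0775) and without control replicate 2 (0.0514). Idi1 lost it without control replicate 2 or 3 and without knockdown replicate 2 or 3 (0.0851, 0.0894, 0.0862 and 0.0856), as did Mylip (0.0693, 0.0523, 0.107 and 0.107). Pmvk, Nsdhl and Dhdds kept theirs only without control replicate 1, with adjusted p of up to 0.103, 0.141 and 0.164 in the other 5 fits. In the comparison without control replicate 1, the calls of 5 of 28 members depended on a further library. Ggps1 lost its call without any one of the 5 libraries (edgeR adjusted p of 0.0526 to 0.163), and Ebp without control replicate 2 or knockdown replicate 2 or 3 (0.154, 0.0529 and 0.0902). Insig2 lost it without control replicate 3 or knockdown replicate 2 or 3 (0.192, 0.0812 and 0.0947), and Dhdds and Mylip without control replicate 2 (0.054 and 0.0563). Pdss2 and Soat1 gained a call without control replicate 3 (0.0387 and 0.0159), where control replicate 2, with 1 count of Soat1, was the only control.

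Genes next to the pathway were read from lists fixed by name. Of 19 genes of fatty acid synthesis that SREBP is known to drive, 17 could be tested, and 4 fell with 6 libraries (median log2 fold change -0.49), where 10.7% of all genes tested were lower. These were the citrate carrier Slc25a1 (-0.74, edgeR adjusted p = 0.00567), the elongase Elovl6 (-0.84, 0.0102), the carboxylase Acacb (-1.15, 0.0299) and Aacs, which feeds ketone bodies into lipid synthesis (-0.59, 0.0437). Without control replicate 1, 12 fell and 2 rose, where 26.1% of all genes were lower and 26.1% higher. All knockdown libraries were below control replicate 1 at 4 of these 17 genes and above it at 11, beside 44.8% and 41.2% of all genes tested, and at 12 and 4 of the 19 sterol enzymes. Fasn, the fatty acid synthase, for instance, was at 398, 924 and 933 CPM in control and 592, 522 and 518 CPM in knockdown libraries. Scd1, the main fatty acid desaturase, was at 424, 948 and 915 CPM against 532, 555 and 533 CPM. The choice of Fasn and Scd1 was made with their values in view and is not part of the naming rule, and the difference between the lists was not tested.

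Of 13 genes that process SREBP or sense sterols, 2 fell and 2 rose with 6 libraries, shares near those of all genes tested (10.7% lower and 9.92% higher). Without control replicate 1, 4 fell and 5 rose, beside 26.1% of all genes in each direction. Mbtps1, the protease that makes the first cut in SREBP, rose by 0.37 (edgeR adjusted p = 0.0491), and Erlin2, an endoplasmic reticulum protein that binds INSIG and SCAP, rose by 0.56 (edgeR adjusted p = 0.0075). The progesterone receptor membrane components Pgrmc1 and Pgrmc2 fell by 0.53 and 0.38 (edgeR adjusted p = 0.0154 and 0.0246). Of 13 genes of LXR and oxysterol metabolism 9 could be tested. With 6 libraries 2 fell, and 3 without control replicate 1, beside the same 10.7% and 26.1% of all genes. The former were Cyp39a1, an oxysterol hydroxylase, with a log2 fold change of -1.08 (edgeR adjusted p = 0.00551) and the apolipoprotein gene Apoe, with a log2 fold change of -0.65 (edgeR adjusted p = 0.0136). Of 13 genes of sterol trafficking and uptake 12 could be tested. Among these the membrane contact protein Vapb rose by 0.34, while the receptor gene Lrp8 fell by 0.51 (edgeR adjusted p = 0.0263 and 0.0488). Vapb rose by 0.35 and Lrp8 fell by 0.47 without control replicate 1.

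Among 12 genes that use isoprenoids, 2 fell with 6 libraries, a share near the 10.7% of all genes that were lower. Without control replicate 1, 3 fell and 3 rose, beside 26.1% of all genes in each direction. Nus1, the partner of Dhdds, was at 212, 165 and 168 CPM in control and 124, 126 and 125 CPM in knockdown libraries, a fall of 0.54 (edgeR adjusted p = 0.0235), opposite to Dhdds. Fntb, the beta subunit of farnesyltransferase, went from 17.9, 31.1 and 34.7 CPM to 16.5, 12.9 and 15.2 CPM (-0.91, edgeR adjusted p = 0.0478). Of the 14 genes named from these lists for passing the threshold, Slc25a1 and Cyp39a1 passed in all 6 leave-one-out fits, and for the others the highest edgeR adjusted p in such fits lay between 0.0532 and 0.18.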

How the data were processed

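The authors deposited a table of whole-number read counts per gene and a matching FPKM table for 34718 genes. Tools listed without roles are featureCounts 1.5.0-p3 and HISAT2 2.0.5, per the submitters' processing notes, with build mm10. Annotation and strand setting are not given in sources used here. In 4601 genes with at least 500 counts in every library the deposited counts and FPKM implied 1 length within 0.022%.

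Counts were filtered with filterByExpr (11975 genes with 6 libraries, 12108 without control replicate 1), scaled by TMM and tested with the quasi-likelihood test of edgeR 4.0.16 in R 4.3.3, with group as the only term. Two-sided p-values were adjusted by Benjamini-Hochberg over all genes tested, with a threshold of 0.05. SE is the log2 fold change divided by the root of F. CPM per library are TMM-scaled. The procedure was checked on simulated counts drawn from a common mean per gene, in which no control stood apart as control replicate 1 does. That check therefore cannot show how the test behaves with such a library. FPKM served only to compare levels between genes. Exonic overlap comes from GENCODE M21 (GRCm38).

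The members, companion lists and the comparison without control replicate 1 were chosen with earlier results of these data known. All members are accounted for, and up to 4 called genes with the smallest p are named per companion list; some results of these lists are not reported here. No label says that replicates came from separate cultures, and p-values therefore measure only the spread between these libraries, which may be technical. Alternatives were RLE scaling, mitochondrial genes left out, DESeq2 1.42.0, limma 3.58.1 (voom with sample quality weights), other filters, a replicate block and each library left out.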

Additional observations from a re-analysis of the deposited data

How the results depend on the processing

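With 6 libraries, 14 members fell and 1 rose. These counts were 4 to 24 and 0 to 4 with 1 library left out, the highest without control replicate 1 and the lowest count of falls, 4, without knockdown replicate 3. Voom with sample quality weights, which weights libraries by their fit, gave 24 and 4. DESeq2 gave 2 rises, and fitting without a filter beyond 1 count gave 0. Over all genes tested, 2466 were called, 6287 with voom and 6313 without control replicate 1, and 1529, 1260, 719, 596 and 534 without control replicates 2 and 3 and knockdown replicates 1, 2 and 3. The cause of these shifts was not tested. The members' median log2 fold change stayed between -0.60 and -0.44 in these fits, and between -0.64 and -0.57 in those of the comparison without control replicate 1. Without control replicate 1, falls stayed at 22 to 24 of 34 under all alternatives, and rises, 4, were 2 to 5 with a further library left out.

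Deviations of same-numbered libraries correlated at 0.001, 0.017 and 0.048, and those of differently numbered libraries at -0.042 to 0.015. Control deviations were taken from a mean that includes control replicate 1, so these values cannot show whether the numbers pair samples. No pairing was used in the main fits. With the replicate number as a block, 10 members fell, 0 rose and 987 genes were called.

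Signs turned only at 4 uncalled members. With 6 libraries, Pdss1 was 0.07 with voom and, with 1 library left out, between -0.40 (without control replicate 2) and 0.08 (without control replicate 1). Stard4 was -0.08 with voom and between 0.16 and -0.09 without the same libraries, and Soat2 0.07 with voom and between -0.26 and 0.04. Soat2 was 0.01 without knockdown replicate 2, and Soat1 -0.02 without control replicate 2 and 1 without control replicate 3. In the comparison without control replicate 1, leaving out control replicate 2 gave -0.07 for Soat1 and -0.21 for Soat2, leaving out control replicate 3 gave 3.62 for Soat1, which then passed (edgeR adjusted p = 0.0159) against a single control with 1 count, and 0.35 for Soat2, and leaving out knockdown replicate 3 gave -0.07 for Soat2. With 1 control left, that library is assumed to vary like the others.

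Read on 1 strand only, the NF-Y box was in 50% of members as the gene reads and in 64.3% on the opposite strand, the Sp1 box in 57.1% and the sterol element in 0% on the opposite strand. The 39.3% for the sterol element with 1 mismatch was chosen after seeing the data.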

Other observations

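Knockdown replicate 1 held Idi1 at 14.9 CPM, from 227 counts, where knockdown replicates 2 and 3 both held 42.5 CPM. Of 8775 genes tested with a mean of at least 10 CPM in the knockdown libraries, 0.467% had a range over these 3 libraries at least as wide as that of Idi1 (1.48 on the log2 scale, against a median of 0.14). Msmo1 was also lowest in that library, by 0.36, while Mylip was highest there, by 0.64, from 18 counts against 9 and 8. Both values are in log2 of CPM plus 0.5, which narrows differences at a gene as low as Mylip. These genes were singled out after their values were seen, and no explanation was tested.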
